A study of Mus musculus with 294 samples.

Results

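Cytochrome P450 genes encode haem enzymes that add oxygen to steroids, bile acids, retinoids, vitamin D, fatty acids and foreign compounds, and the liver is their main site of expression. This account covers 50 of the 16643 genes measured in the livers of 294 F2 mice. They are all genes whose annotated symbol follows the P450 pattern (Cyp, a family number, a subfamily letter and a member number), less 11 P450 genes set aside by the rule that chose them: Cyp2b9, Cyp2b13, Cyp2c29, Cyp2c39, Cyp3a16, Cyp3a25, Cyp3a44, Cyp2d9, Cyp17a1, Cyp4a14 and Cyp27a1. In all, 61 genes matched the pattern. No level of the 50 genes was used to choose them. Cyp2c23 is listed in the annotation under its older symbol Cyp2c44. Cyp7a1, Cyp2a5, Cyp3a11, Cyp4a10 and Cyp4a12a were not analysed here.

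The F2 animals descend from a cross of B6/J with A/J mice, both inbred, so that at each locus that differs between the strains an F2 animal can carry either allele on either chromosome. Total RNA of each liver was hybridised to 1 Affymetrix expression array, and the labels give no treatment, diet, age or sex. As the rule asks, the livers were described in 2 classes by the level of Eif2s3y, a Y-linked translation initiation factor gene: Eif2s3y-high livers (6.97 to 8.78 on the log2 scale, median 8.27) and 148 Eif2s3y-low livers (1.99 to 3.03, median 2.49), all others of the 294 being Eif2s3y-high. The classes come from a measured value and are not labels of the study, so that differences between them are given as a description with no test. All values below are log2 of the normalized intensity, the brightness of a probe after RMA summarisation, taken from the probe of highest mean for each gene. Levels of different genes are not compared as amounts, because each probe has its own response.

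The P450 enzymes of the liver act at several points. Cyp7b1, Cyp39a1, Cyp8b1 and Cyp2c70 modify sterols and bile acids, and Cyp26a1 and Cyp26b1 inactivate retinoic acid. Cyp2r1 activates vitamin D. The Cyp2c and Cyp2j subfamilies oxidise arachidonic acid and drugs, the Cyp4 family oxidises the far end of fatty acids, and Cyp1a2, Cyp2b10 and Cyp2e1 are known for the metabolism of drugs, aromatic amines and ethanol. Most microsomal P450 enzymes draw electrons from P450 reductase, and their transcription in hepatocytes is known to respond to nuclear receptors, to inflammation and to the hormonal state of the animal.

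Array medians lay between 4.40 and 4.53 on the log2 scale, and arrays were much alike, with a middle value of 0.989 for the median r of each array to the rest. A set of 27 arrays, 17 of them Eif2s3y-high and 10 Eif2s3y-low, correlated least with the rest. By a separate criterion, 21 arrays, 6 Eif2s3y-high and 15 Eif2s3y-low, were high in markers of pancreas or skeletal muscle. The 2 sets were chosen independently, may share arrays, and were left out in turn. Hepatocyte markers (3 of 5 measured) had a summed level of 15.40 to 15.61 in Eif2s3y-high livers and 15.45 to 15.62 in Eif2s3y-low livers. Kupffer cell markers (12 of 12 measured) had 11.04 to 14.03 in Eif2s3y-high livers and 11.82 to 14.73 in Eif2s3y-low livers, and endothelial markers (5 of 5) had 9.29 to 10.83 and 9.89 to 11.07 in the same order. In whole liver, fewer cells of a type and less RNA per cell cannot be told apart.

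The first question was how strongly the P450 genes varied between F2 livers. The class median was above the middle array median of 4.46 for 33 of the 50 genes in Eif2s3y-high livers and 34 in Eif2s3y-low livers. It lay below every array median for 17 and 16 genes in the same order, among them the adrenal steroid genes Cyp11a1, Cyp11b1 and Cyp11b2, the vitamin D genes Cyp24a1 and Cyp27b1, and Cyp1a1, the dioxin-inducible P450. For these dim genes an intensity near background limits any statement on spread. The spread of a gene within a class is given as a fold between the 10th and 90th percentiles of its livers. It was at least 2-fold in 16 of 50 P450 genes in Eif2s3y-high livers, against 4.49% of all genes, and in 13 of 50 in Eif2s3y-low livers, against 3.85% of all genes. In both classes it reached 2-fold in 12 of 50, against 3.15% of all genes. The median spread was 1.47-fold in Eif2s3y-high livers and 1.5-fold in Eif2s3y-low livers for the P450 genes, beside 1.38-fold and 1.36-fold for all genes. Among genes with a median above 4.46, 15 P450 genes in Eif2s3y-high livers and 12 in Eif2s3y-low livers spanned 2-fold, beside 6.39% and 5.45% of all such genes.

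**Figure D1:**
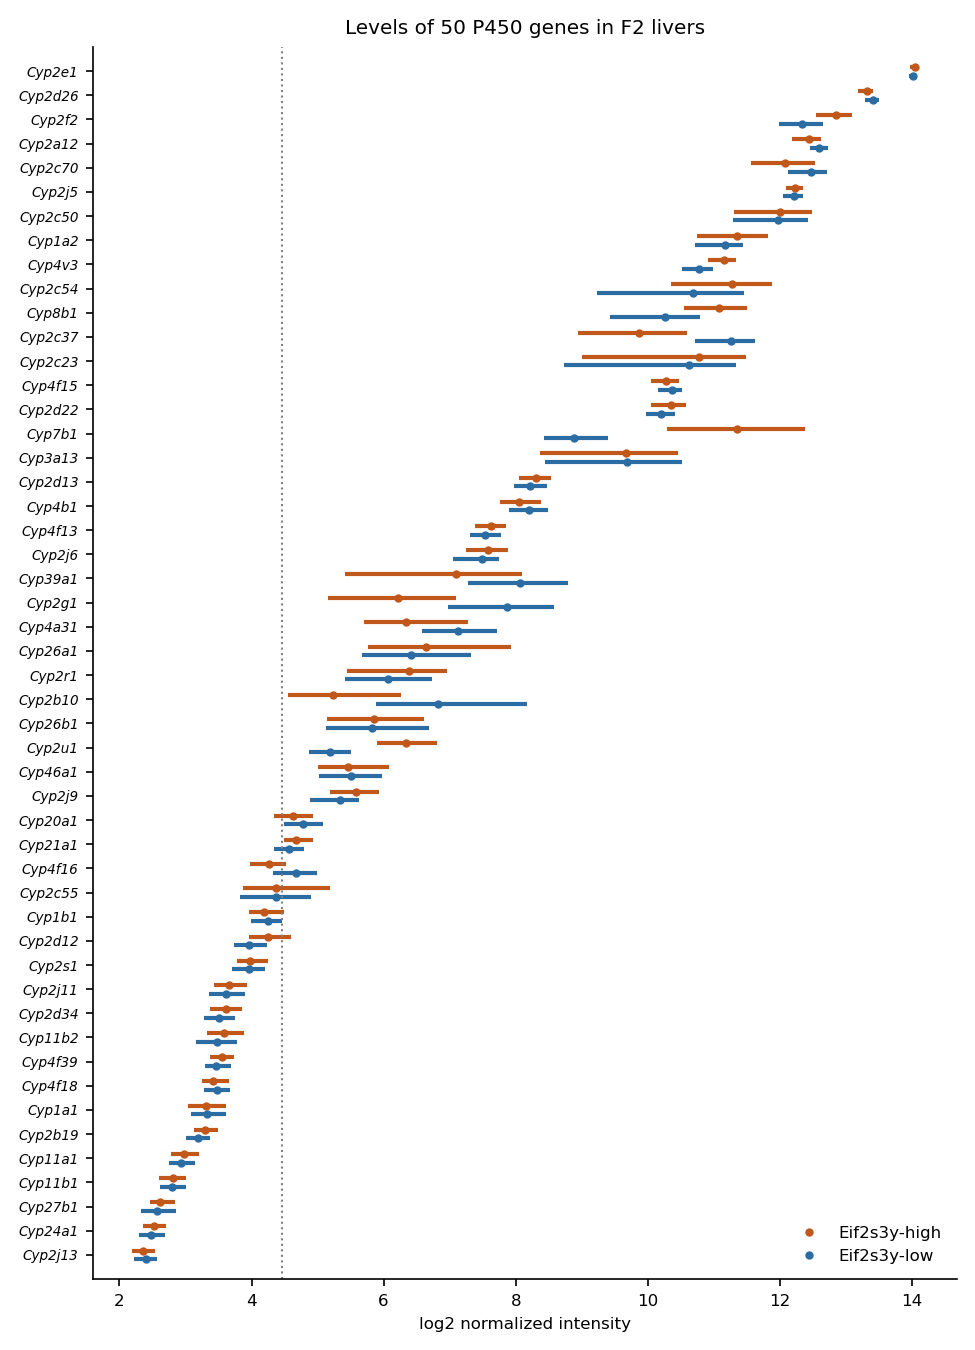
Levels of the 50 P450 genes on the log2 intensity axis, one row per gene, ordered by mean; points are class medians, lines run from the 10th to the 90th percentile over the Eif2s3y-high (orange) and 148 Eif2s3y-low (blue) livers, and the dotted line marks the middle array median of 4.46. The lines are long for Cyp39a1, Cyp2c23 and Cyp26a1 and hardly longer than the point for Cyp2e1, and the blue and orange points stand apart for Cyp7b1, Cyp2g1 and Cyp2b10.

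The widest genes came from several pathways. Cyp39a1, an oxysterol hydroxylase, ran from 4.02 over a median of 7.09 to 9.83 in Eif2s3y-high livers, a spread of 6.46-fold. In Eif2s3y-low livers it ran from 5.04 over 8.06 to 9.51, a spread of 2.86-fold. Its livers thus reached similar highest levels in both classes, while the median and the lowest level were lower in the Eif2s3y-high class. Cyp26a1, the main retinoic acid hydroxylase, ran from 5.35 over 6.65 to 9.96 in Eif2s3y-high livers and from 5.11 over 6.41 to 8.69 in Eif2s3y-low livers, with spreads of 4.47-fold and 3.11-fold. Its relative Cyp26b1 spanned 2.78-fold in Eif2s3y-high livers and 2.96-fold in Eif2s3y-low livers. These 2 retinoid genes were therefore wide in both classes, although neither was bright. Cyp2r1, a vitamin D hydroxylase gene, ran from 4.09 over 6.39 to 7.39 in Eif2s3y-high livers (2.85-fold) and from 4.63 over 6.06 to 7.34 in Eif2s3y-low livers (2.5-fold).

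Several of the brightest genes were steady. Cyp2e1, which oxidises ethanol, stayed between 13.80 and 14.14 in Eif2s3y-high livers (median 14.04) and between 13.75 and 14.11 in Eif2s3y-low livers (median 14.01), a spread of 1.08-fold in each class. Cyp2d26 spanned 1.16-fold in Eif2s3y-high livers and 1.15-fold in Eif2s3y-low livers, and the epoxygenase gene Cyp2j5 1.20-fold and 1.23-fold in the same order. These probes lay among the brightest on the array, and whether saturation narrows their spread was not tested. Brightness did not always go with a narrow spread, since Cyp2c50, with a median of 11.96 in Eif2s3y-low livers and a similar one in the other class, spanned 2.26-fold in Eif2s3y-high livers and 2.19-fold in Eif2s3y-low livers.

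Class medians differed by over 1 on the log2 scale for 5 of 50 P450 genes, against 0.595% of all genes. The ranges of all 50 genes overlapped between the classes, and the share over all genes is not given here. Cyp7b1, the oxysterol hydroxylase of the alternative bile acid pathway, ran from 9.08 over 11.35 to 13.18 in Eif2s3y-high livers and from 7.88 over 8.88 to 9.77 in Eif2s3y-low livers. None of the 148 Eif2s3y-low livers exceeded the Eif2s3y-high median, a distance of 2.47 between medians, and all Eif2s3y-high livers exceeded the Eif2s3y-low median. Its 2 brightest probes varied together, with r = 0.995 in Eif2s3y-high livers and 0.960 in Eif2s3y-low livers. Its spread was 4.29-fold in Eif2s3y-high livers and 1.96-fold in Eif2s3y-low livers.

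Cyp2g1, a P450 gene known mainly from olfactory mucosa, ran from 3.53 over 6.21 to 8.06 in Eif2s3y-high livers and from 4.89 over 7.86 to 9.04 in Eif2s3y-low livers. Cyp2b10, a drug-inducible gene regulated by the receptor CAR, ran from 4.24 over 5.24 to 8.22 in Eif2s3y-high livers and from 5.24 over 6.82 to 9.62 in Eif2s3y-low livers. Cyp2c37 ran from 8.18 over 9.87 to 11.23 in Eif2s3y-high livers and from 9.57 over 11.25 to 12.07 in Eif2s3y-low livers. For these 3 genes the Eif2s3y-high livers were the lower class by median, and the ranges of the classes overlapped. The Eif2s3y-low median was exceeded by 1 Eif2s3y-high liver for Cyp2g1, 7 for Cyp2b10 and 0 for Cyp2c37. Cyp2u1, a fatty acid hydroxylase gene, had class medians of 6.34 in Eif2s3y-high livers and 5.19 in Eif2s3y-low livers at its brightest probe, but 5.26 and 5.24 at its next probe. The 2 probes did not vary together (r = -0.015 in Eif2s3y-high and 0.068 in Eif2s3y-low livers), so that the value of Cyp2u1 depends on the probe. Of all 50 genes, 31 had the higher median in Eif2s3y-high livers. This count includes differences as small as 0.0065 for the dim Cyp11b1, and the share over all genes is not given here.

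The next question was whether any gene fell into separate levels, as a gene under the control of a single segregating locus can in an F2 cross. A shape was called as 2 levels where a mixture of 2 normal curves had the lowest Bayesian information criterion (BIC) among 5 shapes, at least 10 below a single normal curve, with means at least 1.5 SD apart. This was so for 7 of 50 P450 genes in Eif2s3y-high livers, against 5.26% of all genes, and for 6 of 50 in Eif2s3y-low livers, against 4.55% of all genes. The 1:2:1 shape of 3 equally spaced levels was called for 0 of 50 genes in Eif2s3y-high livers, against 0.0961% of all genes, and for 0 of 50 in Eif2s3y-low livers, against 0.156%. Cyp2c23, Cyp3a13, Cyp2e1, Cyp4b1 and Cyp4f15 were called as 2 levels in both classes, 5 genes of 50, against 1.23% of all genes. The classes hold different animals, so that each is a separate description.

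Cyp2c23, an arachidonic acid epoxygenase, had many livers in each of its levels. In Eif2s3y-high livers it ran from 6.88 over 10.77 to 11.82, and 34 livers (weight 22.8%) formed a lower level with a mean of 8.96, against 10.96 for the upper level, a distance of 4.01-fold. In Eif2s3y-low livers it ran from 7.84 over 10.62 to 11.81, and 41 of 148 (weight 27.5%) formed a lower level with a mean of 8.84, against 10.85, a distance of 4.02-fold. The 2 classes thus gave nearly the same 2 levels, with a minority of livers in the lower one. The lower level was present in 14 of 15 label blocks in Eif2s3y-high livers and 15 of 15 in Eif2s3y-low livers, and 5 and 3 of its livers in the same order were among the 27 least correlated arrays. The gain in BIC over a normal curve was 62.3 in Eif2s3y-high and 92.1 in Eif2s3y-low livers, and the call held in every alternative.

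Cyp3a13, a drug-metabolising P450 of the Cyp3a subfamily, also had 2 levels. In Eif2s3y-high livers, 36 livers formed a lower level with a mean of 8.49, against 9.94 for the upper, a distance of 2.73-fold. In Eif2s3y-low livers, 47 of 148 formed it, with means of 8.57 and 10.02, a distance of 2.74-fold. The levels were not parted by an empty interval, since the highest liver of the lower level stood at 9.05 and the lowest of the upper level at 9.12 in Eif2s3y-high livers. The gain in BIC was 10.7 in Eif2s3y-high and 26.1 in Eif2s3y-low livers, and the call ended in Eif2s3y-high livers with quantile normalization (gain 9.93) and in Eif2s3y-low livers with block means removed (gain 8.84). In Eif2s3y-high livers, 12 animals were in the lower level of both Cyp2c23 and Cyp3a13, or 35.3% of the lower Cyp2c23 and 33.3% of the lower Cyp3a13 livers, where 24.7% and 23.3% of all livers of the class lay in the lower level of the other gene. In Eif2s3y-low livers they were 13, or 31.7% and 27.7%, beside 31.8% and 27.7%.

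The other calls, apart from Cyp2j6, had at most 11 livers in the lower level. Cyp4f15, a fatty acid hydroxylase gene, had 2 low livers in the Eif2s3y-high class and 10 of 148 in the Eif2s3y-low class, and both calls ended without the 27 least correlated arrays. Cyp4b1 had 2 and 3 low livers in the same order, of which 2 and 1 were among those arrays. Cyp2e1 had 11 low livers in the Eif2s3y-high class and 3 in the Eif2s3y-low class, and its levels were only 1.09-fold and 1.16-fold apart. Cyp2a12 had 7 low livers in the Eif2s3y-high class, 5 of them among the 27 arrays. Cyp2c54, a linoleic and arachidonic acid epoxygenase, had 4 low livers in the Eif2s3y-high class at a mean of 8.20, against 11.23 for the others, and none of the 4 was among the 27 arrays. Cyp2j6 was called in Eif2s3y-low livers, with 29 of 148 in a lower level 1.44-fold below the upper, at a gain in BIC of 10.1.

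**Figure D2:**
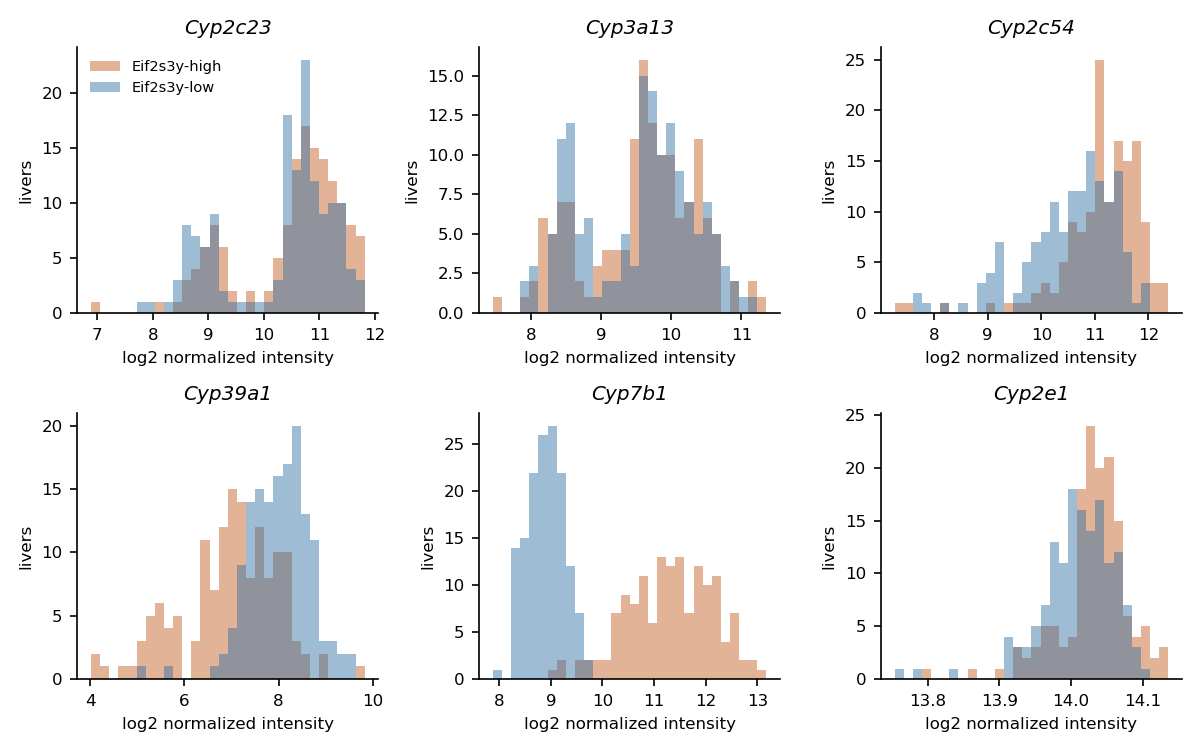
Histograms of 6 P450 genes over the Eif2s3y-high (orange) and 148 Eif2s3y-low (blue) livers, with log2 intensity on the horizontal axis and the number of livers on the vertical axis. Cyp2c23 has a separate mound near 9 in both classes, Cyp3a13 a shoulder near 8.5, Cyp2c54 and Cyp39a1 long lower tails, Cyp7b1 a broad orange and a narrow blue mound, and Cyp2e1 a span under 0.5.

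Genes that varied most like a P450 gene were sought among all other genes by the smaller of the 2 class values of r. For Cyp2c23 they were Sfxn2, a mitochondrial transporter gene, Gsto1, a glutathione transferase gene, and Abcc2, an export pump gene for organic anions. All 3 lie on the chromosome of Cyp2c23, with 49, 70 and 2 coding genes between. As Cyp2c23 has 2 levels, r is given within each level, the upper level holding all livers of a class outside the lower one, and in all 95 relations within levels were computed for the genes called; their permutation p-values (two-sided, 100000 resamples) are not adjusted, and those of 1e-05 are the smallest possible. With Abcc2, r was 0.358 and rho 0.366 in the upper Eif2s3y-high livers (permutation p = 9e-05 for each) and 0.374 and 0.371 in the upper Eif2s3y-low livers (permutation p = 8e-05 for each). In the lower level it was 0.034 in 34 Eif2s3y-high livers (permutation p = 0.851) and 0.132 in 41 Eif2s3y-low livers (permutation p = 0.413). With Gsto1, r was 0.322 and 0.450 in the upper Eif2s3y-high and Eif2s3y-low livers (permutation p = 0.00048 and 1e-05), and 0.091 and 0.370 in the lower ones (permutation p = 0.614 and 0.0167). The difference between levels was not tested. The most alike genes were chosen by r in these same livers. Their p-values, here and below, are therefore a description and no independent test.

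The genes most like Cyp3a13 were Zfp68 and Zscan21, both zinc finger genes, and Lnx2, a ubiquitin ligase gene, all on its chromosome with 23, 6 and 148 coding genes between. With Zfp68, r was 0.598 in the upper Eif2s3y-high livers and 0.647 in the upper Eif2s3y-low livers (permutation p = 1e-05 for each). In the lower level r was 0.550 in 36 Eif2s3y-high livers (permutation p = 0.0007), where it was 0.251 without the 2 livers farthest from the median of Zfp68, and 0.405 in 47 Eif2s3y-low livers (permutation p = 0.00462). For Cyp39a1 the most alike were Riok2, Adgrf5 and Enpp5, again on its own chromosome, with 609, 5 and 1 coding genes between. With Adgrf5, an adhesion receptor gene, r was 0.511 in Eif2s3y-high livers and 0.464 in Eif2s3y-low livers, and rho 0.577 and 0.496. For the remaining genes examined in this way, none of the 3 most alike genes was on the same chromosome, with the exception of Cyp8b1 and its neighbour Ackr2.

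Of the 6 pairs among the sterol and bile acid genes Cyp7b1, Cyp39a1, Cyp8b1 and Cyp2c70, none was called in both classes. In Eif2s3y-high livers 4 were called, and 1 in Eif2s3y-low livers. Of pairs of a P450 gene with any other gene, 5.13% were called positive and 4.61% negative in Eif2s3y-high livers. In Eif2s3y-low livers these shares were 5.43% and 4.71%, and 3.08% were called in both classes with the same sign. The pair of largest r was Cyp2c70/Cyp7b1, with r = 0.458 in Eif2s3y-high and 0.148 in Eif2s3y-low livers (limma adjusted p = 1.17e-06 and 0.267). Cyp39a1/Cyp7b1 was negative, with r = -0.387 in Eif2s3y-high and -0.069 in Eif2s3y-low livers (limma adjusted p = 9.35e-05 and 0.678). For Cyp39a1/Cyp8b1 the threshold parted similar values, r = 0.230 and 0.221 in the same order (limma adjusted p = 0.0479 and 0.0584). The same held for Cyp2c70/Cyp8b1, with r = -0.247 and -0.211 (limma adjusted p = 0.0301 and 0.0764). The values of Cyp2c70/Cyp39a1 differed in sign between the classes, r = -0.066 and 0.240 (limma adjusted p = 0.694 and 0.0363). Its Eif2s3y-low value was 0.110 without the 2 livers farthest from the median of Cyp2c70. Those of Cyp7b1/Cyp8b1 differed in sign too, r = -0.170 and 0.205, but were called in neither class (limma adjusted p = 0.182 and 0.0854). The difference between classes was not tested. Cyp8b1, which makes cholic acid, ran from 9.77 over 11.08 to 12.19 in Eif2s3y-high livers and from 8.34 over 10.26 to 11.29 in Eif2s3y-low livers. Its most alike genes were Fpgs, a folate enzyme gene (r = 0.481 and 0.467 in Eif2s3y-high and Eif2s3y-low livers), Ackr2, a chemokine receptor gene directly beside it (r = 0.421 and 0.439), and Bhmt, a methyltransferase gene (r = 0.422 and 0.381). Cyp2c70, which makes the muricholic acids of mice, ran from 10.79 over 12.07 to 12.84 in Eif2s3y-high livers and from 11.43 over 12.46 to 13.04 in Eif2s3y-low livers, and its 2 probes varied together (r = 0.876 and 0.802). Cps1, the first enzyme of the urea cycle, was the most alike gene of Cyp2c70 (r = 0.421 and 0.418). Cyp7b1 was most like Sult5a1, a sulfotransferase gene (r = 0.672 and 0.551), Slco1a1, an uptake transporter gene (0.785 and 0.551), and Mup4, a pheromone carrier gene (0.794 and 0.471).

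The promoters of Cyp8b1 and Cyp2c70 are shown because these were the only 2 of 35 P450 promoters with the motif CAAAGTCCA, a form of the site of the hepatocyte factor HNF4. Each sequence gives the 250 bases before the start of the gene from RefSeq (GRCm38.p6), 5′ to 3′ along the gene, and both genes lie on the minus strand. Capitals mark that motif and, nearer the start, the TATA box TATAAA, which in Cyp2c70 is on the opposite strand and reads TTTATA.
Cyp8b1, chr9:121916306-121916555: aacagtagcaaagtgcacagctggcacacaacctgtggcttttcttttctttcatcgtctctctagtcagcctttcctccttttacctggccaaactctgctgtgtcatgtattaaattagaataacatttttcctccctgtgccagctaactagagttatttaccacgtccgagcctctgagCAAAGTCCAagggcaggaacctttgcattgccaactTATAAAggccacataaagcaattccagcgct
Cyp2c70, chr19:40187287-40187536: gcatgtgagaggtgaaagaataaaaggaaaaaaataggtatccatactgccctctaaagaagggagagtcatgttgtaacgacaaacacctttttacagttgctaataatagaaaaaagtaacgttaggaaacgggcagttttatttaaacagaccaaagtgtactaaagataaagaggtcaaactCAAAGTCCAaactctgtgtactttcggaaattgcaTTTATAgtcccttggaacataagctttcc

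The search covered both strands of the same 250 bases. CAAAGTCCA was in 5.71% of the P450 promoters, against 0.381% of 27025 promoters in the table, and TATAAA in 10 of 35, or 28.6%, against 13.0%. The xenobiotic response core GCGTG was in 28.6%, against 28.2%, and AGGTCA in 11.4%, against 13.8%. TTCNNNGAA, the GAS site of STAT5, was in 8.57%, against 7.18%, and the D box TTATGNAA in 5.71%, against 3.23%. The direct repeat of AGGTCA known as DR1, the HNF1 site and the repeat known as DR5 were in 0 of 35, against 0.037%, 0.0074% and 0.0074%. AGGTCA is part of the 2 repeats and can overlap them. A match of letters is a description and no evidence of binding.

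The question for coexpression was which P450 genes varied together from liver to liver within a class. Each of the 1225 pairs was tested within each class by limma, with adjustment over all genes, all 50 P450 genes and both classes. The larger p of the 2 directions was kept for these pairs. Pairs with any other gene were fitted only on the P450 gene, so the shares set side by side rest on unlike rules. Positive pairs numbered 117 in Eif2s3y-high livers, or 9.55%, against 5.13% for pairs of a P450 gene with any other gene, and 130 in Eif2s3y-low livers, or 10.6%, against 5.43%. Negative pairs numbered 38, or 3.10%, against 4.61%, in Eif2s3y-high livers and 45, or 3.67%, against 4.71%, in Eif2s3y-low livers. The mean r over all pairs was 0.035 in Eif2s3y-high livers and 0.038 in Eif2s3y-low livers. In both classes with the same sign, 58 of the 1225 pairs were called, against 3.08% for pairs with any other gene, and 32 without the 27 least correlated arrays, against 1.8%. Of 45 pairs with 10 or fewer coding genes between them, 9 were called positive in Eif2s3y-high and 7 in Eif2s3y-low livers, and 3 negative in each class. Of pairs on the same chromosome with over 10 between, 10.1% were called positive in Eif2s3y-high and 15.9% in Eif2s3y-low livers. Negative were 2.9% and 4.35% in the same order. In Eif2s3y-low livers this positive share was close to the 15.6% of the pairs with 10 or fewer between. Of 1062 pairs on different chromosomes, 8.38% were called positive in Eif2s3y-high and 9.42% in Eif2s3y-low livers, and 3.01% and 3.3% negative. Pairs with no place given, such as Cyp2d13/Cyp2d22, are in none of these groups. The groups were not tested against each other.

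The closest pairs were Cyp2c genes. Cyp2c50 and Cyp2c54 had r = 0.813 and rho = 0.777 in Eif2s3y-high livers and r = 0.595 and rho = 0.574 in 148 Eif2s3y-low livers (limma adjusted p = 3.49e-31 and 1.94e-12), positive in 15 of 15 label blocks of each class. Without the 4 low Cyp2c54 livers of the Eif2s3y-high class, r was 0.751. Cyp2c37 and Cyp2c50 had r = 0.777 and rho = 0.850 in Eif2s3y-high livers and r = 0.504 and rho = 0.521 in Eif2s3y-low livers (limma adjusted p = 1.32e-26 and 2.35e-08), positive in 15 and 14 of 15 blocks. In both classes a liver high in Cyp2c50 was therefore mostly high in Cyp2c54 and Cyp2c37, although Cyp2c37 was the lower in Eif2s3y-high livers by class median. Cyp2c50 and the dim Cyp2c55 had r = 0.552 and rho = 0.654 in Eif2s3y-high livers and r = 0.485 and rho = 0.460 in Eif2s3y-low livers (limma adjusted p = 3.35e-10 and 1.12e-07). The permutation p of r and of rho was 1e-05 for each of these pairs, the smallest that 100000 resamples give.

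Cyp2c23 was related to Cyp2c50 and Cyp2c55 in its upper level in both classes. With Cyp2c50 it had r = 0.517 in the upper Eif2s3y-high livers and 0.393 in the upper Eif2s3y-low livers (permutation p = 1e-05 and 6e-05), against -0.041 in 34 lower Eif2s3y-high and -0.001 in 41 lower Eif2s3y-low livers (permutation p = 0.814 and 0.994). With Cyp2c55 it had r = 0.342 and 0.313 in the upper level of Eif2s3y-high and Eif2s3y-low livers (permutation p = 0.00023 and 0.0009), and -0.109 and 0.374 in the lower level (permutation p = 0.518 and 0.0164). The difference between levels was not tested, and the lower levels hold fewer livers. Whether the probes of these similar genes also capture each other's transcripts was not tested, because probe sequences were not used here.

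Promoter sequences of 3 of these genes are shown because the genes varied together and the first pair is nearly alike upstream. Each gives the 250 bases before the start from RefSeq (GRCm38.p6), 5′ to 3′, on the plus strand, and capitals mark a TATA box, found in Cyp2c55 alone of the 3.
Cyp2c37, chr19:39992174-39992423: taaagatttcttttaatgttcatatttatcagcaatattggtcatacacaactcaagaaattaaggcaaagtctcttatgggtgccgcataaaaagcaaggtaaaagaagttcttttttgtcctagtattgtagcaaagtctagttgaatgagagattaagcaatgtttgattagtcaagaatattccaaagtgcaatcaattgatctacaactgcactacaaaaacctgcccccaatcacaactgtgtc
Cyp2c50, chr19:40089429-40089678: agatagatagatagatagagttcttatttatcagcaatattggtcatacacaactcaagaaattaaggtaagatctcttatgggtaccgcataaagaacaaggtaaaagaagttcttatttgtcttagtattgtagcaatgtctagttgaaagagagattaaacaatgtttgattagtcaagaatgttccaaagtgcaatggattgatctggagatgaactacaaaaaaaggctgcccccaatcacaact
Cyp2c55, chr19:39006769-39007018: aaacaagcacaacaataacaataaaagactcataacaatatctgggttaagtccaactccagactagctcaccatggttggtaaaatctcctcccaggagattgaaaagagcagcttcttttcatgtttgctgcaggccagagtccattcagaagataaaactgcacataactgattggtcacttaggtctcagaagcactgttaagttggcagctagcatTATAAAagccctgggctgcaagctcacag

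Aligned along their length, Cyp2c37 and Cyp2c50 were identical at 87.8% of aligned bases, gaps left out. Cyp2c55 matched Cyp2c37 at 46.3% and Cyp2c50 at 49.6%, close to the 43.6% to 49.6% of the other pairs among the 5 promoters shown.

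**Figure D3:**
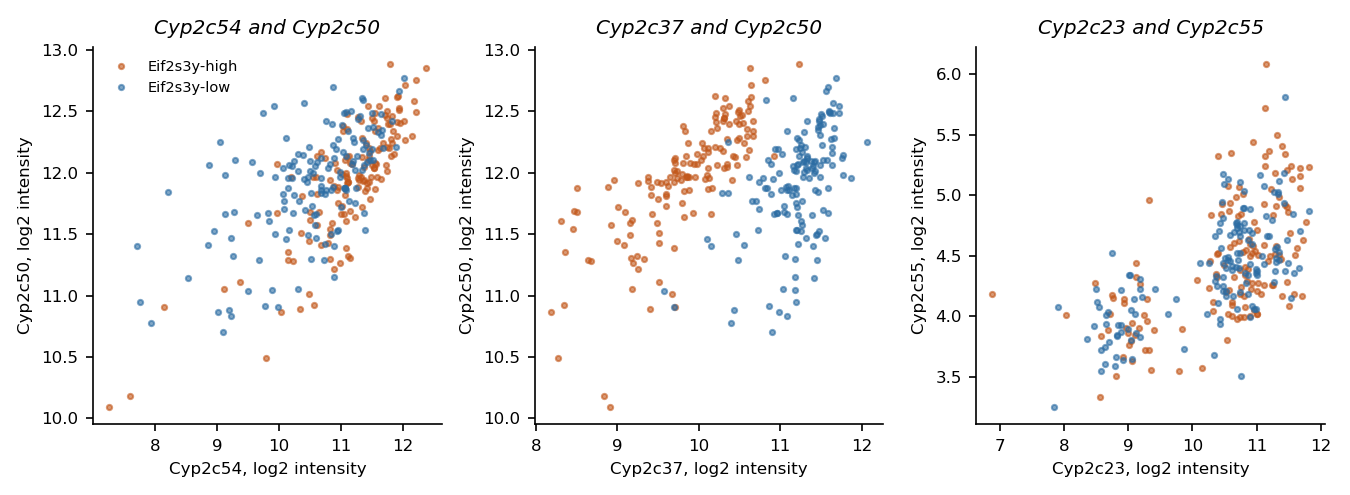
Scatter plots of 3 pairs of Cyp2c genes, each point a liver, both axes in log2 intensity, Eif2s3y-high livers in orange and Eif2s3y-low livers in blue. Cyp2c50 climbs with Cyp2c54 and with Cyp2c37 in both classes, the blue points standing to the right of the orange ones for Cyp2c37, and the points of Cyp2c23 form the 2 levels described above.

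Outside the Cyp2c group, Cyp2j5 and Cyp2j6, which oxidise arachidonic acid, had r = 0.487 and rho = 0.392 in Eif2s3y-high livers (limma adjusted p = 4.21e-07). In Eif2s3y-low livers, where Cyp2j6 has 2 levels, r was 0.482 in the upper livers (permutation p = 1e-05) and 0.137 in the 29 lower ones (permutation p = 0.480). Cyp2c54 and Cyp7b1 had r = 0.480 and rho = 0.416 in Eif2s3y-high livers and r = 0.495 and rho = 0.494 in Eif2s3y-low livers (limma adjusted p = 2.06e-07 and 5.20e-08), with r = 0.370 once the 4 low Cyp2c54 livers were left out. Both genes were near Slco1a1, with which Cyp2c54 had r = 0.506 over the other Eif2s3y-high livers and 0.727 over the 148 Eif2s3y-low livers. Cyp2d13 and Cyp2d22, of the drug-metabolising Cyp2d subfamily, had r = 0.510 and rho = 0.361 in Eif2s3y-high livers and r = 0.469 and rho = 0.435 in Eif2s3y-low livers (limma adjusted p = 2.80e-08 and 5.72e-07). Cyp2f2, known for naphthalene metabolism, and Cyp4f13 had r = 0.456 and 0.423 in Eif2s3y-high and Eif2s3y-low livers (limma adjusted p = 1.89e-06 and 1.31e-05).

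**Figure D4:**
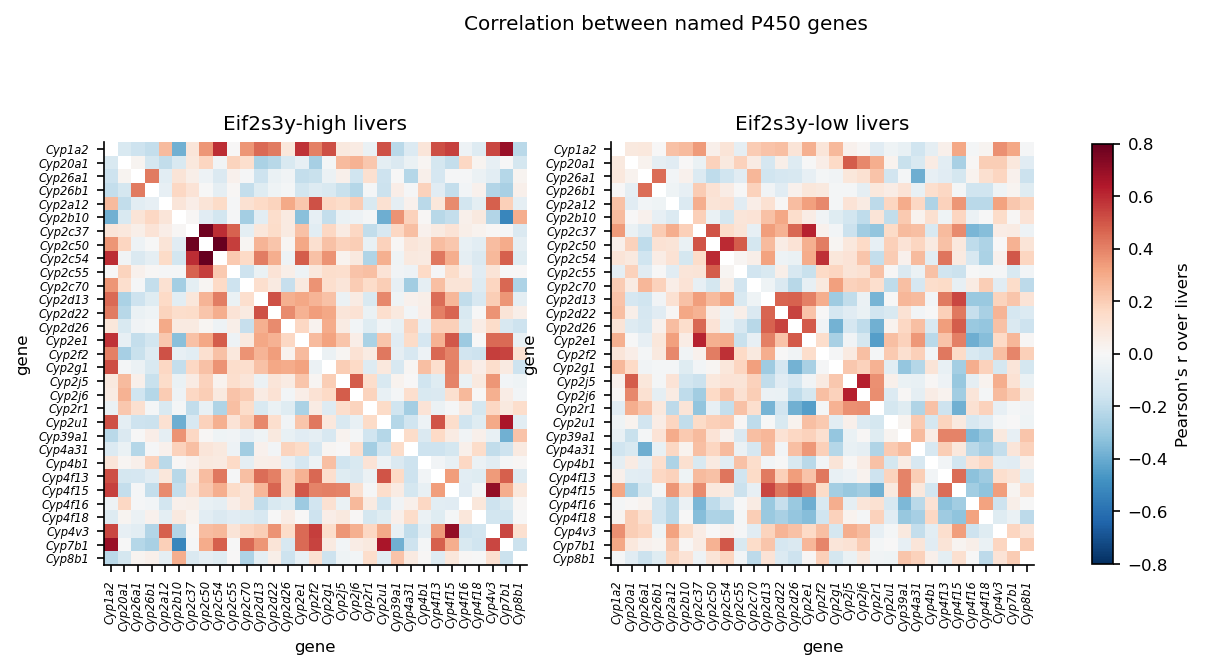
Pearson's r between the named P450 genes over the Eif2s3y-high livers (left) and 148 Eif2s3y-low livers (right), red for positive and blue for negative values, with the diagonal left blank and Cyp2c23 and Cyp3a13 left out for their 2 levels. The deepest red squares are those of Cyp2c50 with Cyp2c54 and Cyp2c37 (0.813 and 0.777 in Eif2s3y-high livers), and most squares are pale.

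The last question was how P450 genes varied with other functions of the liver. For this, 10 lists of genes without any P450 gene were each reduced to a score, the mean z score of the list in a class, and all genes were fitted on each score with limma, with adjustment over all genes. Sterol synthesis came first. Cyp2r1 was the P450 gene most related to the cholesterol synthesis score (16 of 21 genes measured), with r = 0.559 and rho = 0.541 in Eif2s3y-high livers and r = 0.615 and rho = 0.584 in 148 Eif2s3y-low livers. The limma adjusted p was 3.79e-11 and 1.41e-14 in the same order, and r was positive in 15 of 15 label blocks of each class. Cyp2e1 had negative values, with r = -0.388 in its upper Eif2s3y-high livers and -0.380 in its upper Eif2s3y-low livers (permutation p = 1e-05 for each). In its 11 lower Eif2s3y-high livers r was 0.606 (permutation p = 0.0342) and rho 0.50 (permutation p = 0.122), but r was -0.123 without the 2 livers farthest from the median score, so that the positive value rests on those. In Eif2s3y-high livers, 4 P450 genes were positively and 4 negatively related to this score, against 9.12% and 6.96% of all genes. In Eif2s3y-low livers, 7 were positively and 5 negatively related, against 7.34% and 6.83% of all genes.

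The score of PPARA targets, many of them genes of fatty acid oxidation (22 of 25 measured), was related to genes of each sign. Cyp4a31, a fatty acid omega-hydroxylase gene of a subfamily known as a PPARA target, had r = 0.558 and rho = 0.467 in Eif2s3y-high livers and r = 0.572 and rho = 0.492 in Eif2s3y-low livers, positive in 14 of 15 blocks of each class. Cyp2c70 had r = -0.514 and rho = -0.545 in Eif2s3y-high livers and r = -0.396 and rho = -0.354 in Eif2s3y-low livers, negative in 15 of 15 blocks of each class. Livers with a higher score thus tended to have higher Cyp4a31 and lower Cyp2c70. Cyp2d26 was positively related (r = 0.384 and 0.506) and Cyp2r1 negatively (r = -0.311 and -0.369) in Eif2s3y-high and Eif2s3y-low livers, with limma adjusted p under the threshold of 0.05 in each class. In Eif2s3y-high livers, 4 P450 genes were positively and 6 negatively related, against 6.76% and 5.01% of all genes. In Eif2s3y-low livers, 8 were positively and 7 negatively related, against 8.5% and 9.73% of all genes. Without the 27 least correlated arrays, 12 were negatively related in Eif2s3y-high livers, against 6.9% of all genes, and 3 positively in Eif2s3y-low livers, against 5.7%.

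**Figure D5:**
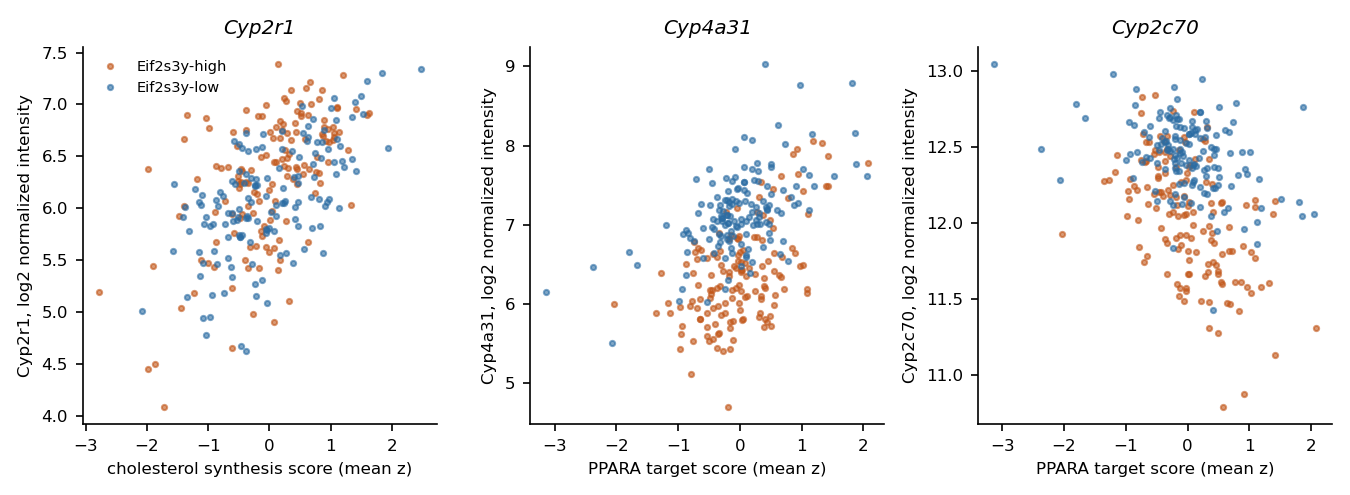
Levels of Cyp2r1 against the cholesterol synthesis score and of Cyp4a31 and Cyp2c70 against the PPARA target score, each point a liver, Eif2s3y-high in orange and Eif2s3y-low in blue; scores are mean z within a class and have no unit. Cyp2r1 and Cyp4a31 climb and Cyp2c70 declines with the score in both classes.

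Cyp2g1 and Cyp1a2 varied with genes of the circadian clock. With the score of 9 evening clock genes, which include Dbp and Per2, Cyp2g1 had r = 0.627 and rho = 0.548 in Eif2s3y-high livers and r = 0.279 and rho = 0.211 in Eif2s3y-low livers. By ranks the relation of Cyp2g1 was not called in Eif2s3y-low livers (0.222). Cyp1a2 had r = 0.481 and rho = 0.330 in Eif2s3y-high livers and r = 0.312 and rho = 0.258 in Eif2s3y-low livers. Without the 27 least correlated arrays, r was 0.515 and 0.320 for Cyp2g1 and 0.382 and 0.284 for Cyp1a2 in Eif2s3y-high and Eif2s3y-low livers. Of the 50 genes, 10 were positively and 3 negatively related in Eif2s3y-high livers, against 12.5% and 9.71% of all genes, and 6 and 2 in Eif2s3y-low livers, against 7.47% and 6.28%. Without the 27 least correlated arrays the positive count in Eif2s3y-high livers was 3, against 9.73%, and by ranks it was 6, against 11.6%. The time of day at which the livers were taken is not given in the sources used here.

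Several P450 genes were lower where acute phase genes were higher, and fewer of them were called without the least correlated arrays. With the acute phase score (19 of 21 genes measured), 15 of 50 P450 genes were negatively related in Eif2s3y-high livers, against 14.5% of all genes, and 8 of 50 in Eif2s3y-low livers, against 6.94%. Without the 27 least correlated arrays the counts were 2, against 5.26%, and 2, against 2.45%, and by ranks 5, against 7.65%, and 4, against 4.34%. Cyp4v3, a fatty acid hydroxylase gene, had r = -0.508 and rho = -0.222 in Eif2s3y-high livers and r = -0.339 and rho = -0.363 in Eif2s3y-low livers, and -0.306 and -0.344 without those arrays. Cyp1a2 had r = -0.413 and rho = -0.162 in Eif2s3y-high livers (permutation p = 1e-05 and 0.0519) and r = -0.372 and rho = -0.233 in Eif2s3y-low livers, and -0.271 and -0.363 without them. By ranks Cyp1a2 was not called in Eif2s3y-high livers (-0.177). Positively related were 2 genes in Eif2s3y-high livers, against 15.0%, and 3 in Eif2s3y-low livers, against 9.19%.

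A few livers were lowest in many of the genes. An Eif2s3y-high liver was the lowest of its class in 6 of the 33 P450 genes with a median above 4.46, and another in 4; these had the 2 highest acute phase scores of their class, and both belonged to the same label block and to the 27 arrays. An Eif2s3y-low liver, also among the 27, was the lowest in 8 of 34 genes and had the highest acute phase and Kupffer cell scores of 148. The Eif2s3y-high pair also had the 2 lowest P450 partner and CAR and PXR target scores of its class, and the Eif2s3y-low liver the lowest of its own. The pair were also the 2 Eif2s3y-high livers farthest from the median acute phase and evening clock scores. Without the pair, r with the acute phase score was -0.259 for Cyp4v3 and -0.258 for Cyp1a2 in Eif2s3y-high livers. With the evening clock score, r without the pair was 0.535 for Cyp2g1 and 0.348 for Cyp1a2. The Eif2s3y-low liver was not left out alone.

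The partners of P450 enzymes, P450 reductase, cytochrome b5 and the enzymes of haem synthesis, formed a score of 12 measured genes of 13. It was positively related to 13 of 50 P450 genes in Eif2s3y-high livers, against 12% of all genes, and to 11 of 50 in Eif2s3y-low livers, against 9.6%, and negatively to 1 and 3, against 13.0% and 8.98%. Without the 27 arrays the positive counts were 3, against 6.05%, and 3, against 7.62%. Cyp2d26 remained called, with r = 0.433 and rho = 0.343 in Eif2s3y-high livers and r = 0.461 and rho = 0.291 in Eif2s3y-low livers, and 0.354 and 0.301 without those arrays. Cyp4v3 remained called too, with r = 0.596 and 0.329 over all livers and 0.310 and 0.314 without them, although with quantile normalization it was not called in Eif2s3y-low livers (0.217). Cyp4f15 had r = 0.427 in its upper Eif2s3y-high livers (permutation p = 1e-05) and 0.208 in its upper Eif2s3y-low livers (permutation p = 0.0141), and was not called in Eif2s3y-low livers without the 27 arrays (0.230).

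The targets of the drug-sensing receptors CAR and PXR other than P450 genes (12 of 16 measured) were positively related to 13 of 50 genes in Eif2s3y-high livers, against 12.4% of all genes, and to 7 in Eif2s3y-low livers, against 10.7%. Without the 27 arrays these counts were 5, against 7.76%, and 7, against 9.18%. Negative relations numbered 1, against 16%, and 3, against 10.8%. Cyp2b10, a usual marker of CAR activity, was called in neither class (r = 0.084 in Eif2s3y-high and 0.191 in Eif2s3y-low livers, limma adjusted p = 0.50 and 0.0739). Cyp2c37 had r = 0.282 and rho = 0.315 in Eif2s3y-high livers and r = 0.351 and rho = 0.272 in Eif2s3y-low livers, and remained called without the 27 arrays. Cyp4v3 had r = 0.529 and rho = 0.518 in Eif2s3y-low livers. In Eif2s3y-high livers it had r = 0.518 but rho = 0.129, and r = 0.175 without the 27 arrays.

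The Kupffer cell score (12 genes) was positively related to 3 P450 genes in Eif2s3y-high livers, against 6.84% of all genes, and 5 in Eif2s3y-low livers, against 10.8%, and negatively to 1, against 1.86%, and 14, against 7.24%. Without the 27 arrays the negative counts were 3, against 1.80%, and 3, against 3.22%. Cyp4f18, a leukocyte P450, had r = 0.301 and 0.521 in Eif2s3y-high and Eif2s3y-low livers, and rho = 0.240 and 0.302. Cyp4f16 had r = 0.354 and 0.456, but its 2 probes did not vary together (r = 0.056 and 0.070). Cyp4f18 lay below every array median in both classes, and Cyp4f16 in Eif2s3y-high livers. The interferon score (21 of 25 measured) was positively related to 1 gene and negatively to 1 in Eif2s3y-high livers, against 6.17% and 5.5%, and to 6 and 5 in Eif2s3y-low livers, against 8.85% and 6.18%. Without the 27 arrays the counts in Eif2s3y-low livers were 2, against 5.2%, and 1, against 1.39%.

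Zonation scores came from genes of the pericentral and periportal ends of the lobule. The pericentral score (12 genes) was related to 0 of 50 in Eif2s3y-high livers, against 0.138% of all genes positive and 0.0421% negative by limma, and in Eif2s3y-low livers to 1 positive, against 0.974%, and 0 negative, against 0.758%. The 1 gene was Cyp1a2, itself a pericentral enzyme, with r = 0.451. At an unadjusted limma p under 0.05, 7 genes were positively and 3 negatively related to it in Eif2s3y-high livers, against 6.25% and 4.73% of all genes, and 8 and 6 in Eif2s3y-low livers, against 6.71% and 6.29%. Gulo, the gulonolactone oxidase gene, is a member of the pericentral list and was also the gene most like Cyp1a2, with r = 0.764 and rho = 0.683 in Eif2s3y-high livers and r = 0.451 and rho = 0.397 in Eif2s3y-low livers. The periportal score (10 of 12 measured) was related to 4 positive and 4 negative genes in Eif2s3y-high livers, against 6.2% and 8.86%, and to 5 and 1 in Eif2s3y-low livers, against 3.49% and 3.55%. Called in both classes were 3 genes, against 3.45% of all genes. They were Cyp2d22 (r = 0.262 in Eif2s3y-high and 0.280 in Eif2s3y-low livers), Cyp4v3 (0.309 and 0.298) and Cyp4a31 (-0.228 and -0.266). Without the 27 least correlated arrays 1 gene was called in both classes, against 1.44%.

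Further genes of like pattern were listed for single P450 genes. Cyp26a1 was most like Rarb, a retinoic acid receptor gene (r = 0.413 and rho = 0.454 in Eif2s3y-high livers, r = 0.398 and rho = 0.422 in Eif2s3y-low livers), and Lrat, which stores retinol as esters (r = 0.353 and 0.446). Cyp2e1 was most like Rbp4, the carrier of retinol in blood, with r = 0.373 in its upper Eif2s3y-high livers and 0.483 in its upper Eif2s3y-low livers, and like Cyb5a, the gene of cytochrome b5, with 0.480 and 0.515 in the same livers. Cyp4b1 was most like Oit3, with r = 0.578 in its upper Eif2s3y-high livers and 0.537 in its upper Eif2s3y-low livers, and like Clec14a, an endothelial gene, with 0.506 and 0.486. Cyp2b10 was most like Asl, a urea cycle gene (r = 0.474 and 0.437).

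Label blocks, the 15 sets of 17 to 23 animals that share the first digits of their label number, were compared as a possible batch, with class as a covariate. By limma's moderated F test, 20 of 50 P450 genes differed between blocks, against 38.4% of all genes, and 6 did so without the 27 least correlated arrays, against 28.6%. Blocks took 16.8% of the variance of Cyp2b10 (adjusted p = 1.83e-05) and 16.3% of that of Cyp39a1 (adjusted p = 3.39e-05). The block medians of Cyp2b10 lay 1.45 apart in Eif2s3y-high livers and 1.19 apart in Eif2s3y-low livers between the lowest and highest block, and those of Cyp39a1 1.65 and 1.07 apart. Cyp2a12, Cyp1a2 and Cyp2d13 followed with 14.5%, 12% and 11.9%. What the blocks stand for is not stated in the labels, so that breeding, season, handling and array processing cannot be told apart.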

How the data were processed

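Liver RNA of 294 F2 mice was measured on Affymetrix arrays. The authors deposited 1 normalized intensity per probe and array on a linear scale, made with RMA per the submitters' processing notes; its version and settings are not given in the sources used here. The values were used as log2 with no pseudocount. The annotation named 25508 of 32640 probes with 1 symbol, 7132 with none and 0 with several; symbols were updated through RefSeq synonyms (2830 of 16788, 1 of them among the P450 genes), and a gene was its probe of highest mean. Of the 50 P450 genes, 8 had several probes.

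Scores, pairs and label blocks were fitted over all genes with limma 3.58.1 in R 4.3.3 (lmFit, eBayes, Benjamini-Hochberg, threshold 0.05). Pairs were adjusted over 1664200 tests, the larger p of the 2 directions being kept; the 24 named pair values, 1000 gene and score relations and 90 values of most alike genes form the families of r computed. Permutation p-values used 100000 resamples in Python 3.11.15 with scipy 1.17.1, two-sided. Where an adjusted p is not printed, a relation said to be called was under the threshold. The 50 genes, the lists, the markers and the tests were chosen with earlier results of these data known, so that no p-value is adjusted over the P450 genes alone.

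Genes were named by rule: the 12 brightest, in each class the 10 widest above the middle array median, the 10 of largest class difference, all called as 2 or 3 levels, the 12 closest pairs, the 4 most related to each score in both classes, and the 5 of largest block share. The 3 livers singled out were chosen after their values were seen, as was the relation of Cyp2b10 with the CAR and PXR score. The text leaves out some named genes. Fits were tested on simulated data. Each animal was measured once, and the number of arrays and signal over background limit the precision. Alternatives were quantile normalization, block means removed, leaving out 27 arrays (median correlation over 3 median absolute deviations below the median) or 21 arrays (pancreas markers over 3 or muscle markers over 2 log2 above the median array), the mean over probes, genes above the middle array median only, and ranks.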

Additional observations from a re-analysis of the deposited data

How the results depend on the processing

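No paired analysis was possible because the labels form a single group and give no replicate numbers that groups share. Of the named results, all 140 alternative values of gene pairs and all 392 of spreads stayed on their side of the threshold, as did 398 of 444 of gene and score relations and 60 of 78 of shapes.

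Without the 27 least correlated arrays, the number of P450 genes called in both classes with the same sign was 2 for the acute phase score (8 over all arrays; 3.25% and 10.9% of all genes), 2 for P450 partners (6; 2.74% and 7.95%), 2 for CAR and PXR targets (6; 7.41% and 11%), 1 for periportal genes (3; 1.44% and 3.45%) and 1 for Kupffer cells (4; 5.09% and 6.79%). Pairs fell to 32 there (58 over all arrays), genes that differed between blocks to 6 (20), and genes of 2 levels in both classes to 2 (5). By ranks the counts were 1 for acute phase (5.34% of all genes), 3 for CAR and PXR targets (9.72%) and 1 for Kupffer cells (4.64%). With quantile normalization 2 genes were called for the interferon score (1 in the main result) and 2 for shape. With the mean over probes 0 were called for interferon by limma, where Cyp4f16 had r = 0.172 in Eif2s3y-high livers. With block means removed 1 was called for periportal genes and 2 for shape. For the counts under these 3 settings the shares over all genes are not given here. The same holds for the genes of 2 levels without the 27 arrays. Over all arrays the shares were 5.96% for interferon, 3.45% for periportal genes and 1.23% for shape. These changes in count therefore cannot be read as particular to the P450 genes. The relation of Cyp4f15 with the CAR and PXR target score in Eif2s3y-high livers turned to r = -0.0096 without the 27 arrays (0.509 over all arrays, 0.128 without its 2 low livers). The cause of these changes was not tested.

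Genes whose median lies below every array median limit what can be said of spread and coexpression, and no background was measured. No array was repeated, so biological and technical spread cannot be told apart.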
